A study of Homo sapiens with 20 samples.

Results

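The 30 genes described here encode lysosomal membrane proteins, the acid hydrolases and carrier proteins of the lysosomal lumen, and TFEB, a transcription factor that drives lysosomal genes. They were taken as a fixed list of symbols, and all 30 of 30 were among the 17113 protein-coding genes of the count table. Their transcripts were measured in 10 human lines of colorectal cancer (COLO-201, HCT 116, HT-29, LoVo, LS1034, LS123, LS513, SNU-C1, SW480 and WiDr). For each line there was 1 library of total cell RNA and 1 library of RNA from the extracellular vesicles, the membrane-bound particles that cells release into the medium, which gives 20 libraries. The lines are adenocarcinoma lines of the large intestine, labelled wild type and untreated, and all were grown with fetal bovine serum and antibiotics. The study asks how far the RNA of vesicles resembles that of the cells they came from. Cell RNA went into a stranded library kit after removal of ribosomal RNA, whereas vesicle RNA was amplified with a low-input kit and then tagmented, so compartment and library kit cannot be told apart in any comparison below. Each line contributed a single culture per compartment, and the p-values therefore measure spread between lines (n = 10) and not between cultures of a line. The lines are also not fully independent, since over all genes HT-29 and WiDr (r = 0.832) and HCT 116 and LS123 (r = 0.792) were alike in cells, the next pair having r = 0.334. With WiDr and LS123 left out, 20 of the 29 members tested were lower in vesicles and 0 higher. With all lines 19 were lower and 1 higher, beside 28.1% and 28.6% of all genes tested in that fit. The shares over all genes without WiDr and LS123 are not given here, so the count without them cannot be read against background.

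Lysosomes are the acidic organelles in which cells break down proteins, glycans and lipids delivered by endocytosis and autophagy. Their hydrolases and membrane proteins are translated on ribosomes bound to the endoplasmic reticulum and reach the lysosome through the Golgi, many of the soluble enzymes by way of mannose 6-phosphate receptors. TFEB differs from the other 29 in being translated in the cytosol. When it enters the nucleus it binds a palindromic E-box element in the promoters of many lysosomal genes. The membranes of late endosomes and lysosomes also border the compartment in which exosomes form, and LAMP proteins are often measured in vesicle preparations as proteins. The values here concern their mRNAs.

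Reads assigned to genes amounted to 24.8 to 37.4 M per cell library and 1.75 to 24.4 M per vesicle library. The limit allowed by a count of 0 (3 counts) is given on the CPM scale, which sets all libraries to a common size. By library total it was 0.0802 to 0.121 for cell and 0.123 to 1.72 for vesicle libraries, and covers counting error only. The CPM of genes are also divided by the scaling factors of edgeR (0.770 to 0.963 in cells, 0.828 to 1.88 in vesicles), which this limit leaves out. Vesicle libraries also held reads of genes that were silent in the cells (10 counts or fewer in each cell library), and the background estimated from these 2081 genes was 1.61% to 42.7% of the counts of a vesicle library. It was lowest in COLO-201, HT-29, LS513, HCT 116 and SW480, called the 5 lower-background lines below. Colon epithelial markers summed to 3612 to 25181 CPM in cells and 1777 to 19596 CPM in vesicles. Macrophage and leukocyte markers (7 genes in the table) summed to 0.531 to 11.6 CPM in cells and 12.2 to 114 CPM in vesicles. Fibroblast and endothelial markers (9 genes) summed to 1.10 to 21.0 and 37.3 to 376 CPM. Over the vesicle libraries the former had 3141 counts, against 2027 expected from background, and the latter 10394 against 4501. None of these markers was at 0 counts in all cell libraries, and the part of such transcripts in the results was not tested.

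Many proteins made at the endoplasmic reticulum begin with a hydrophobic signal peptide, and the starts of the coding sequences are shown for 3 such members beside TFEB. The first 30 codons (90 nucleotides, exons joined) are given with every codon whose middle base is T in capitals. Such codons, the start codon included, encode the hydrophobic residues phenylalanine, leucine, isoleucine, methionine and valine, which make up the core of a signal peptide. The sequences were read from the reference genome GRCh38 with the GENCODE 29 annotation, and the coordinates are those of the start codon.
LAMP1 (chr13:113297435-113297437, plus strand): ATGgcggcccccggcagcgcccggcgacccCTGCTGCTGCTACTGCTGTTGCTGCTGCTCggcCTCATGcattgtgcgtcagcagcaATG
PSAP (chr10:71851219-71851221, minus strand): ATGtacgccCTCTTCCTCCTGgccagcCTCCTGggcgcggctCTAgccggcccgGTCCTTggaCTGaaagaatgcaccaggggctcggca
TPP1 (chr11:6619398-6619400, minus strand): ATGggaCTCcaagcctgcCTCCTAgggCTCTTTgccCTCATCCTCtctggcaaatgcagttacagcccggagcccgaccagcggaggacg
TFEB (chr6:41691211-41691213, minus strand): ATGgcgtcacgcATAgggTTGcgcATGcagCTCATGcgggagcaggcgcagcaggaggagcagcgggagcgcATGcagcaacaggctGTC
LAMP1 had 14 such codons, most in an unbroken run, PSAP had 11 and TPP1 9. TFEB had 8, scattered along the stretch. MCOLN1 (3), MAN2B1 (5), ASAH1 (6), CLN3 (6) and CTSA (7) had fewer than TFEB. Over the 29 members other than TFEB the median was 10 codons (range 3 to 15), against 8 over 16768 genes with a matched start, so the count does not separate TFEB from the other members.

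Levels in cells ran from abundant transcripts of lumenal proteins to CD68, which was hardly counted. Per kilobase of exonic length, the highest mean level in cells was that of PSAP, the precursor of the saposins that help degrade sphingolipids, at 263 CPM per kb. CTSD (100 CPM per kb), CTSB (95.4 CPM per kb), GRN (79.8 CPM per kb), PPT1 (54.1 CPM per kb) and LAMP2 (53.0 CPM per kb) followed. At the low end were TFEB (2.71 CPM per kb), SGSH (2.30 CPM per kb), CLN3 (0.390 CPM per kb) and CD68 (0.0139 CPM per kb). The order in vesicles was similar, with a Spearman rho of 0.745 between the compartments over the 29 members that passed the filter on low counts. The same exonic length divides both sides of this comparison. PSAP was again highest in vesicles, at 27.5 CPM per kb, and NPC2 (17.1 CPM per kb) stood above CTSD (16.8 CPM per kb) there. Neighbours in these orders mostly lay within each other's spread over lines, as the plot of the members in all 20 libraries shows.

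**Figure D1:**
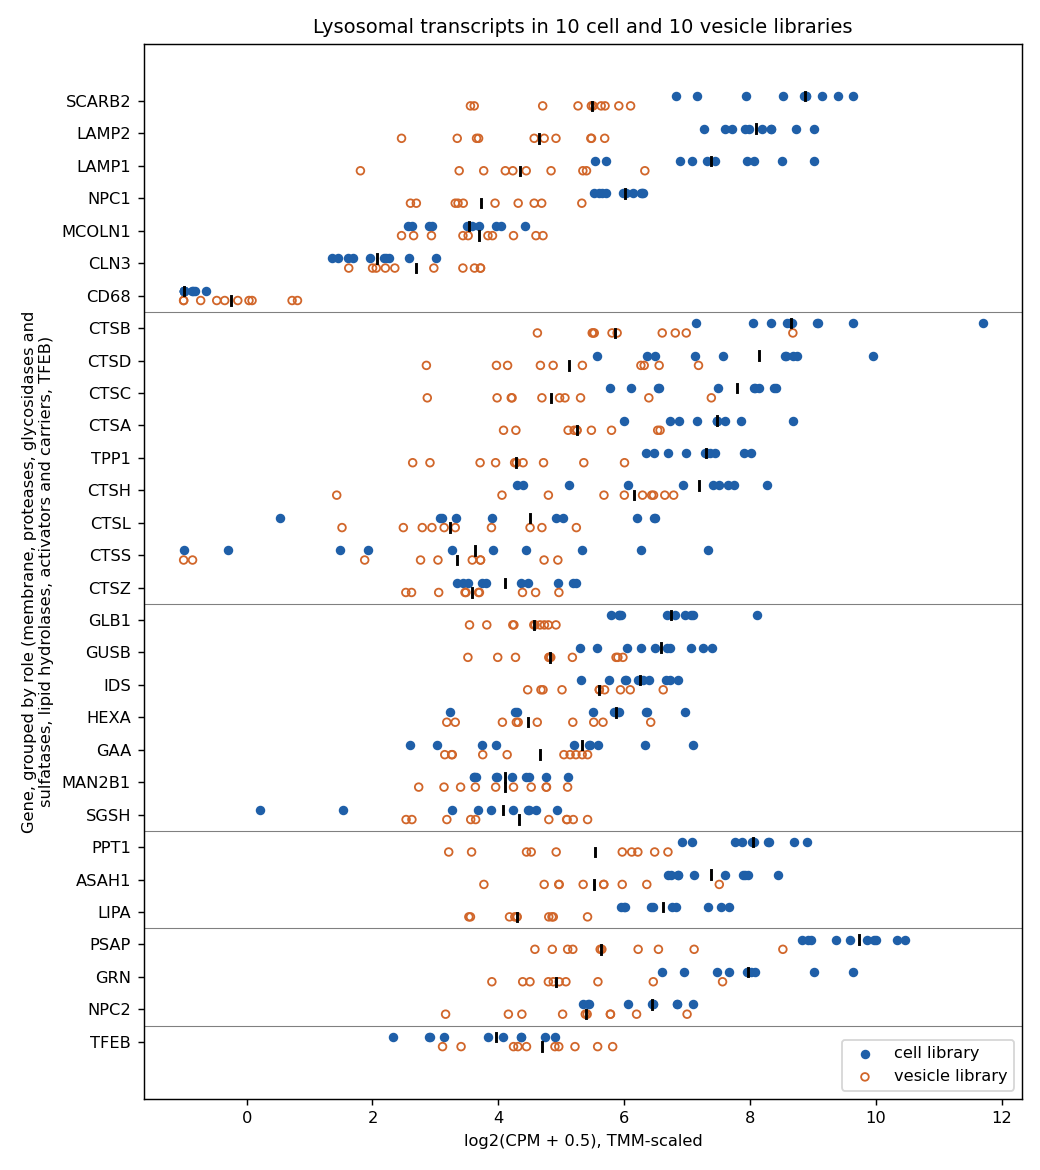
Level of each of the 30 genes in the 10 cell libraries (filled) and the 10 vesicle libraries (open), on a log2 scale of CPM + 0.5 with the scaling factors of edgeR; bars mark medians and genes are grouped by role. In TPP1, GLB1, LIPA, PPT1, PSAP, LAMP2, SCARB2 and NPC1 all vesicle libraries lie below all cell libraries, which held for 4.35% of all genes tested. TFEB, SGSH, CLN3, MCOLN1, CD68 and, by a small margin, MAN2B1 have the higher median in vesicles. MCOLN1 is lower in vesicles in 7 of 10 lines on this scale and in 3 of 10 by library total. CD68 is at or under the expected background in all 10 vesicle libraries.

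Lysosomal transcripts took a smaller share of the counts in vesicles than in cells. The 30 genes accounted for 0.422% ± 0.126 of cell counts and 0.127% ± 0.0601 of vesicle counts (SD, n = 10), and the share was lower in vesicles in each of the 10 lines. In bulk libraries like these, fewer vesicles that carry a transcript and fewer copies per vesicle cannot be told apart. In the quasi-likelihood test of edgeR with cell line as a block, 19 of the 29 tested members were lower in vesicles at an adjusted p under 0.05, 1 (TFEB) was higher and 9 were not called. Over all 15130 genes tested, 28.1% were called lower and 28.6% higher. The median log2 fold change (vesicle over cell) was -1.90 over the members and 0.01 over all genes tested. CD68, a heavily glycosylated membrane protein of macrophage lysosomes, was not tested. Its counts summed to 8 over the cells of the 10 lines and to 30 over their vesicles, where 205 were expected from background, and 85.8% of its exonic bases overlap exons of other genes, whose reads cannot be told apart from its own. Overlaps of 20% or more also touch CTSD, CLN3, CTSA (28.5%), PPT1 (23.4%) and MAN2B1 (21.2%).

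Of the 4322 genes called higher in vesicles only 530 reached 10 CPM in cells, so the members have to be read against genes of their own level. Where the mean cell level was 100 CPM or more, 62.9% of genes were called lower and the median log2 fold change was -1.002. All 15 members in that class were called lower, with a median of -2.71, and 14 of the 15 lay below the lower quartile of the class (-1.65). The exception was CTSH. Among genes of 10 to 100 CPM the share called lower was 32.7% and the median -0.34. Of the 13 members in that class 4 were called lower and 1 higher, with a median of -0.79, which is a share near that of all genes at this level. Within the members, the log2 fold change went down as the level in cells went up (Spearman rho = -0.908 over 29 genes, against -0.488 over 9870 genes of at least 10 CPM), with the cell level entering both axes. With exonic length rho was -0.0133 over the members, and with GC content it was 0.379 over the members and 0.288 over the 9870 genes.

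**Figure D2:**
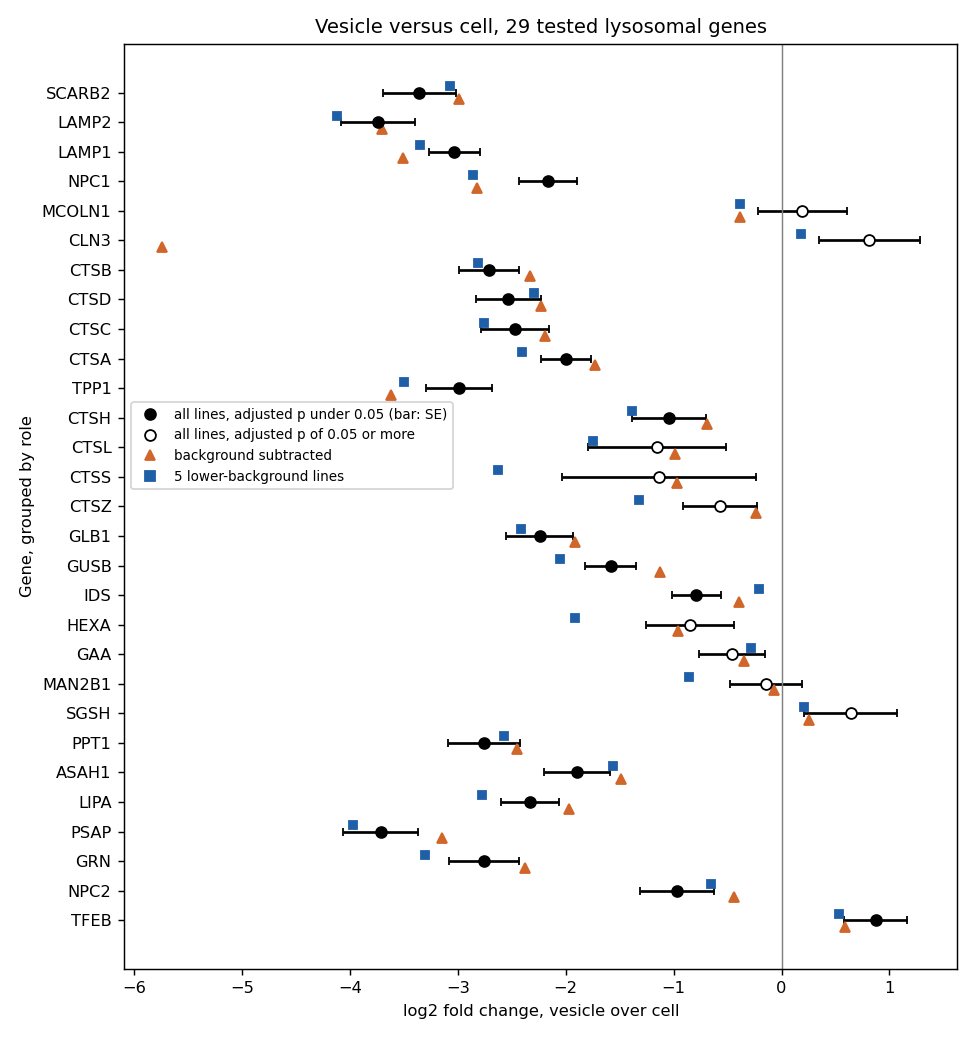
Log2 fold change (vesicle over cell) of the 29 tested genes by role, with bars of 1 SE. Filled circles have an adjusted p under 0.05 in edgeR; triangles give the value after subtraction of the expected background and squares the value in the 5 lower-background lines. The filled circles lie between -3.74 (LAMP2) and -0.79 (IDS) except for TFEB at 0.87, and the triangle of CLN3 stands alone at -5.74.

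The membrane proteins ranged from the deepest fall of the list to a member at its background level. LAMP2, LAMP1, SCARB2 and NPC1 were lower in vesicles, and MCOLN1 and CLN3 were not called (median of the 6 tested, -2.60). LAMP2, the receptor of chaperone-mediated autophagy in 1 of its splice forms, ranged in cells from 154 CPM in LS123 to 518 CPM in SNU-C1, with a median of 271 CPM. In vesicles it ranged from 5.01 CPM in LS513 to 51.1 CPM in HT-29, with a median of 24.6 CPM. No vesicle library reached the lowest cell library, and the fall was 13.4-fold (log2 fold change -3.74, SE 0.34, edgeR adjusted p = 1.39e-06). SCARB2, which carries glucocerebrosidase to the lysosome, stood at 113 to 793 CPM in cells (median 468 CPM) and at 11.3 to 68.2 CPM in vesicles (median 44.5 CPM). It was lower in vesicles in 10 of 10 lines without overlap, by 10.2-fold. Lower in all 10 lines held for 15.3% of all genes tested.

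LAMP1, the other abundant glycoprotein of the lysosomal membrane, was 8.18-fold lower (log2 fold change -3.03, SE 0.24). It overlapped between compartments because lines differed widely, from 46.1 CPM in LoVo to 519 CPM in SNU-C1 cells and from 3.004 CPM in COLO-201 to 79.8 CPM in SNU-C1 vesicles. NPC1, which exports cholesterol from the lysosome, was even across cells (45.2 to 78.1 CPM, median 63.7 CPM) and lay at 5.58 to 39.6 CPM in vesicles (median 12.7 CPM). It fell by 2.17 on the log2 scale, again in 10 of 10 lines. MCOLN1, a cation channel of the lysosomal membrane, was at 5.38 to 20.9 CPM in cells (median 11.1 CPM) and at 5.01 to 25.7 CPM in vesicles (median 12.4 CPM). With the scaling factors of edgeR it was lower in vesicles in 7 of 10 lines, and by library total in 3 of 10. Its log2 fold change was 0.19 (SE 0.41, edgeR adjusted p = 0.712), and the sign changed to -0.38 after background subtraction. CLN3, the membrane protein altered in Batten disease, had a log2 fold change of 0.81 (SE 0.47, adjusted p = 0.152 in edgeR). In vesicles CLN3 had 465 counts in all, against 687 expected from background, and was at or under the expected background in 8 of 10 libraries. After subtraction it was called lower (-5.74), a fitted value that depends on the prior count. It was called higher in DESeq2 (1.19, adjusted p = 0.00339) and in edgeR with DESeq2 size factors (1.19, adjusted p = 0.0486). In edgeR it was also higher under upper-quartile scaling (1.56, adjusted p = 0.0151) and with the filter met in every cell library (1.41, adjusted p = 0.00428). Other genes overlap 30.9% of its exonic bases.

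Of the 9 proteases, 6 were lower in vesicles (CTSA, CTSB, CTSC, CTSD, CTSH and TPP1) and 3 cysteine cathepsins, CTSL, CTSS and CTSZ, were not called (median -1.998). TPP1, a peptidase that removes tripeptides from protein ends, had the deepest fall, 7.95-fold (log2 fold change -2.99, SE 0.31, edgeR adjusted p = 2.79e-06). Its level was 81.0 to 258 CPM in cells (median 157 CPM) and 5.73 to 63.7 CPM in vesicles (median 18.8 CPM), without overlap. CTSB, a cysteine protease, ranged from 141 CPM in LoVo to 3310 CPM in COLO-201 cells, with a median of 400 CPM. Its vesicle level ranged from 24.1 CPM in SNU-C1 to 409 CPM in COLO-201, with a median of 57.1 CPM. COLO-201 was thus the highest line in both compartments, and CTSB was 6.55-fold lower in vesicles, in all 10 lines.

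CTSD, the main aspartic protease of lysosomes, fell by 2.53, CTSC, a dipeptidyl peptidase that activates granule proteases, by 2.47 and CTSA, a carboxypeptidase that protects beta-galactosidase, by 1.998 on the log2 scale. Each was lower in 10 of 10 lines. Overlapping genes share 52.7% of the exonic bases of CTSD. CTSH, an aminopeptidase, was lower in 8 of 10 lines, at -1.04 on the log2 scale (SE 0.34, edgeR adjusted p = 0.0177). The call was lost without LoVo (-0.86, edgeR adjusted p = 0.0590), without the line block (adjusted p = 0.101), after background subtraction (-0.69, adjusted p = 0.276), in DESeq2 (adjusted p = 0.0683), with each of the 3 other scalings (-0.29 under upper-quartile scaling) and with the filter met in every cell library. CTSZ, a carboxypeptidase, differed least: 9.61 to 37.3 CPM in cells (median 16.7 CPM) and 5.28 to 30.7 CPM in vesicles (median 11.5 CPM), with a log2 fold change of -0.57 (SE 0.34, adjusted p = 0.165 in edgeR) that became 0.18 under upper-quartile scaling. CTSZ was called lower in the 5 lower-background lines (-1.32, edgeR adjusted p = 0.0185) and without WiDr and LS123 (-0.85, edgeR adjusted p = 0.0495).

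CTSS, the cathepsin that trims the invariant chain during antigen presentation, varied most between lines in both compartments. In HCT 116 cells it was 0 CPM (0 counts, which allows up to 0.0908 CPM by library total). The level in cells was 0.318 CPM in LS123, 2.30 CPM in LoVo, 3.29 CPM in SW480 and 9.07 CPM in WiDr. It was 14.6 CPM in HT-29, 21.3 CPM in COLO-201, 39.6 CPM in LS1034, 76.7 CPM in SNU-C1 and 160 CPM in LS513 cells. The vesicles of HCT 116 also had 0 counts (up to 0.650 CPM by library total) and those of SW480 had 1 count. LS513 (30.3 CPM) and SNU-C1 (25.98 CPM) were the highest vesicle libraries, as they were the highest in cells. The remaining vesicle libraries lay between 3.17 CPM in HT-29 and 12.6 CPM in LS123 and WiDr. CTSS was lower in vesicles in 6 lines and higher in LoVo, WiDr and LS123, which are all higher-background lines, and its log2 fold change of -1.14 (SE 0.90) was not called. In the 5 lower-background lines it was -2.62 (edgeR adjusted p = 0.0126).

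CTSL, a broad endopeptidase of the same family, likewise differed between lines but without matching vesicles. Its cell level was 0.944 CPM in SNU-C1 (26 counts), 7.92 CPM in LS513, 8.09 CPM in WiDr, 9.56 CPM in COLO-201 and 14.5 CPM in HT-29. The other lines had 29.8 CPM in SW480, 32.0 CPM in LS1034, 73.1 CPM in LoVo, 88.3 CPM in HCT 116 and 89.5 CPM in LS123. SNU-C1, the lowest line in cells, had 25.4 CPM in vesicles, below only LoVo (37.3 CPM), and the background of its vesicle library was 42.7% of counts. The log2 fold change was -1.15 (SE 0.64, adjusted p = 0.135 in edgeR), and -1.52 (adjusted p = 0.00754 in edgeR) without SNU-C1.

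Among the glycosidases and sulfatases 3 of 7 were lower (GLB1, GUSB and IDS) and 4 were not called (HEXA, GAA, MAN2B1 and SGSH), at a median of -0.79. All but GLB1 were at 10 to 100 CPM in cells, where 32.7% of all genes were called lower. GLB1, the lysosomal beta-galactosidase, was at 55.0 to 277 CPM in cells (median 107 CPM) and at 11.1 to 29.7 CPM in vesicles (median 23.3 CPM), which did not overlap. Its fall was 4.73-fold (log2 fold change -2.24, SE 0.31, edgeR adjusted p = 2.80e-05). GUSB, beta-glucuronidase, fell by 1.58 on the log2 scale and IDS, a sulfatase of heparan and dermatan sulfate, by 0.79. The IDS call was lost without LoVo (-0.38, edgeR adjusted p = 0.326), in the 5 lower-background lines (-0.21, adjusted p = 0.519), after background subtraction (-0.40, adjusted p = 0.278) and without WiDr and LS123 (adjusted p = 0.0565). It was also lost in DESeq2, with each of the 3 other scalings (-0.04 under upper-quartile scaling) and with the filter met in every cell library. MAN2B1, the lysosomal alpha-mannosidase, was nearly level, at 11.7 to 34.1 CPM in cells (median 16.7 CPM) and 6.16 to 33.8 CPM in vesicles (median 16.7 CPM). Its log2 fold change of -0.15 became 0.23 with the size factors of DESeq2.

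The remaining members of this group were the alpha subunit of beta-hexosaminidase, acid alpha-glucosidase, which degrades glycogen, and the heparan sulfatase SGSH. HEXA (-0.85, SE 0.41, edgeR adjusted p = 0.0881) was not called with all lines, and was called lower without SNU-C1, without LS123 and in the 5 lower-background lines (-1.91, edgeR adjusted p = 0.00356). In those 5 lines 21 members were lower and 0 higher, where the fit called 19.0% of all genes lower and 19.5% higher. GAA stood at -0.46 (SE 0.31) with TMM scaling and at 0.032 with library size alone. SGSH stood at 0.64 (SE 0.43, adjusted p = 0.215 in edgeR), with 0.665 CPM in SW480 cells against 29.97 CPM in LS123 cells. It was called higher in DESeq2 (1.02, adjusted p = 0.0190). In edgeR it was called higher under upper-quartile scaling (1.40, adjusted p = 0.0148) and with the filter met in every cell library (1.24, adjusted p = 0.0195).

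The 3 lipid and thioester hydrolases were all lower in vesicles in 10 of 10 lines (median -2.33). PPT1, which removes palmitate from proteins, was at 120 to 479 CPM in cells (median 264 CPM) and at 8.77 to 103 CPM in vesicles (median 45.9 CPM). It did not overlap and was 6.77-fold lower (log2 fold change -2.76, SE 0.33). ASAH1, acid ceramidase, was at 103 to 347 CPM in cells (median 166 CPM) and 13.1 to 182 CPM in vesicles (median 45.4 CPM), a 3.72-fold fall with overlap through HCT 116, the highest vesicle library. LIPA, the acid lipase of cholesteryl esters, fell by 2.33 on the log2 scale.

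Among the soluble activators and carriers PSAP, GRN and NPC2 were all lower, with a median of -2.76. PSAP was at 451 CPM in SW480 to 1403 CPM in WiDr cells (median 847 CPM) and at 23.4 CPM in SW480 to 367 CPM in WiDr vesicles (median 49.1 CPM). SW480 was the lowest line and WiDr the highest in both compartments, yet the highest vesicle library stayed below the lowest cell library. The fall was 13.1-fold (log2 fold change -3.72, SE 0.35, edgeR adjusted p = 1.54e-06). GRN, the secreted progranulin that is also delivered to lysosomes, was 6.77-fold lower. NPC2, the soluble protein that hands cholesterol to NPC1, was lower by a smaller margin, with 40.2 to 137 CPM in cells (median 86.8 CPM) and 8.45 to 127 CPM in vesicles (median 41.6 CPM). The log2 difference of -0.97 (edgeR adjusted p = 0.0260, SE 0.35) was not called without LoVo, SNU-C1, HCT 116 or LS123, each left out in turn (adjusted p = 0.0530 to 0.160 in edgeR). It was also not called after background subtraction (-0.44), in the 5 lower-background lines (-0.66), without WiDr and LS123, without the line block, in DESeq2, with the 3 other scalings or with the filter met in every cell library. Where the other 2 carriers had 10.1 and 21.5 times the expected background in vesicles, NPC2 had 41.6 times, the highest ratio of all members over the pooled libraries. The ratio of NPC2 was 164 in the 5 lower-background lines and 6.85 in the other lines, where PSAP had 12.6.

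TFEB was the member called higher in vesicles. In cells it was 4.49 CPM in HCT 116, 6.99 CPM in LS123, 7.08 CPM in SW480, 8.32 CPM in LoVo, 13.7 CPM in WiDr, 16.3 CPM in COLO-201, 20.1 CPM in LS1034 and HT-29, 26.3 CPM in SNU-C1 and 29.5 CPM in LS513. In vesicles it was 8.16 CPM in SW480, 10.1 CPM in HCT 116, 18.4 CPM in LoVo, 19.4 CPM in HT-29, 21.3 CPM in LS513, 29.4 CPM in WiDr, 30.6 CPM in LS123, 36.7 CPM in LS1034, 47.3 CPM in SNU-C1 and 55.9 CPM in COLO-201. The compartments overlapped, and TFEB was higher in vesicles in 8 of 10 lines, HT-29 and LS513 being the exceptions. Its log2 fold change was 0.87 (SE 0.29, edgeR adjusted p = 0.0183), beside 7.06% of genes of 10 to 100 CPM called higher. TFEB had 2250 counts in vesicles against 687 expected from background, 5.67 times the expectation in the 5 lower-background lines and 1.64 times in the other lines. The call was lost in edgeR without the line block (adjusted p = 0.0770), after background subtraction (0.59, adjusted p = 0.301) and in the 5 lower-background lines (0.54, adjusted p = 0.341). It was also lost without WiDr and LS123 (0.70, adjusted p = 0.0677) and without COLO-201 (0.76, adjusted p = 0.0507). The call was kept at larger values with library size alone (1.35), DESeq2 size factors (1.25), upper-quartile scaling (1.62), the filter met in every cell library (1.47) and in DESeq2 (1.25). Under upper-quartile scaling the median over all genes was also higher, at 0.76. TFE3, of the same family, was at -0.84 on the log2 scale (SE 0.25, edgeR adjusted p = 0.0105), a call lost after background subtraction (adjusted p = 0.124), in the 5 lower-background lines (-0.41, adjusted p = 0.200) and without the line block (adjusted p = 0.0506). MITF, at 1.70 (SE 0.75, edgeR adjusted p = 0.0634), was called higher without the line block (adjusted p = 0.0302) and not with it.

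Other lysosomal genes were grouped by where their proteins are made. Of 77 tested genes for further ER-made proteins, 43 were lower in vesicles and 9 higher (median -1.21). These include lysosomal proteins, sorting receptors and enzymes of the mannose 6-phosphate tag. Of 39 tested genes whose products assemble on the lysosome from the cytosol, 14 were lower and 2 higher (median -0.15). Over all genes tested, 28.1% were called lower and 28.6% higher. In the class of at least 100 CPM in cells, 14 of 15 ER-made genes were lower (median -2.62) and 5 of 14 cytosol-made genes (median -0.25), beside 15 of 15 members and 62.9% of all genes. At 10 to 100 CPM, 29 of 48 ER-made genes (median -1.25) and 9 of 20 cytosol-made genes (median -0.38) were lower. Among all genes of that class 32.7% were called lower, with a median of -0.34. With background subtracted, 43 of 73 ER-made genes were lower and 2 higher (median -1.64), whereas 4 of 39 cytosol-made genes were lower and 9 higher (median 0.09). The background shares of lower and higher calls in that fit were 19.2% and 16.1%. Without LoVo 6 cytosol-made genes were lower and 5 higher.

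**Figure D3:**
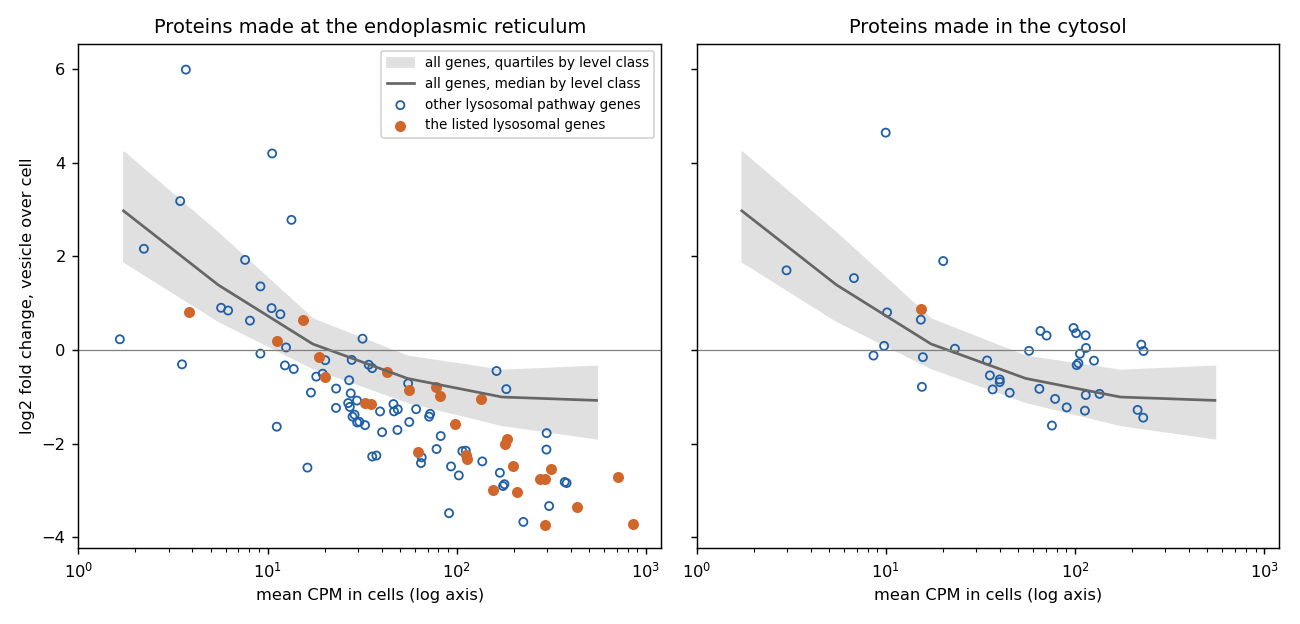
Log2 fold change (vesicle over cell) against mean CPM in cells (log axis) for lysosomal genes whose proteins are made at the endoplasmic reticulum (left) and in the cytosol (right). The grey line and band give the median and quartiles of all genes by class of cell level; at 100 CPM and above, the listed genes and other ER-made genes lie mostly under the band, with medians of -2.71 and -2.62, and the cytosol-made genes have a median of -0.25.

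The ER-made lists followed this by group, and their counts stand beside 28.1% of all genes called lower and 28.6% higher. One list held the sorting receptors M6PR, IGF2R and SORT1 and the enzymes of the mannose 6-phosphate tag, GNPTAB, GNPTG and NAGPA. Of these 5 of 6 were lower (median -2.27), among them SORT1 (-2.62, SE 0.28) and M6PR (-2.38, SE 0.27). NAGPA was not called. Other soluble hydrolases and cofactors numbered 20 lower and 4 higher of 35, with LGMN, the asparagine endopeptidase, at -2.68 (SE 0.23) and FUCA1, the fucosidase, at -2.48 (SE 0.24). All 4 that were higher had a mean under 10 CPM in cells. Of other membrane proteins 13 were lower and 4 higher of 27, with LAPTM4A at -2.84 (SE 0.26), the transporter ATP13A2 at -2.15 (SE 0.26) and GPR137 higher at 0.77 (SE 0.27). GPR137 was not called after background subtraction (0.45, edgeR adjusted p = 0.586), in the 5 lower-background lines (adjusted p = 0.0511) or without the line block (adjusted p = 0.0532).

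The proton pump that acidifies the lysosome has a membrane sector made at the endoplasmic reticulum and a peripheral sector made in the cytosol. Its membrane sector had 5 of 9 genes lower and 1 higher (median -0.83), and the peripheral sector 4 of 11 lower and 1 higher (median -0.23). Among all genes tested 28.1% were lower and 28.6% higher. The accessory subunits ATP6AP2 (-3.33, SE 0.24) and ATP6AP1 (-2.86, SE 0.24) were lower in 10 of 10 lines. ATP6V1C1 (-1.44, SE 0.30) and ATP6V1B2 (-1.29, SE 0.21) led the peripheral sector, ATP6V1C1 without a call in the 5 lower-background lines (-0.76, edgeR adjusted p = 0.0810). ATP6V0A4 was called higher (4.20, SE 1.16) but had 72.7 CPM in COLO-201 cells and a mean of 10.6 CPM, and was not called without the line block (adjusted p = 0.900 in edgeR), after background subtraction (adjusted p = 0.0523) or in the 5 lower-background lines (adjusted p = 0.353).

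Cytosol-made complexes that signal from or move the lysosome showed smaller differences. Their counts stand beside 28.1% of all genes called lower and 28.6% higher. The Ragulator, RAG and folliculin complexes, which link lysosomes to mTOR signalling, had 3 of 12 genes lower (median 0.07), including FNIP1 (-1.61, SE 0.31) and RRAGA (-0.93, SE 0.28). RRAGA was not called after background subtraction (-0.23, adjusted p = 0.487 in edgeR), in the 5 lower-background lines (-0.22, adjusted p = 0.599) or without the line block (adjusted p = 0.110). In the HOPS and BORC complexes, which tether and position lysosomes, 6 of 14 genes were lower and 1 higher (median -0.19), with VPS39 at -1.22 (SE 0.17) and VPS41 at -0.96 (SE 0.17). VPS41 was not called after background subtraction (-0.40, edgeR adjusted p = 0.0911).

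The depth of the fall differed between lines. The median log2 difference over the members was -1.001 in LoVo and -1.16 in WiDr, and between -1.61 in LS123 and -2.24 in LS513 in the other 8 lines. From 20 of the 29 tested members in LoVo to 28 in HT-29 were lower in vesicles. This count was 20 to 23 in the higher-background lines, LoVo and WiDr among them, and 23 to 28 in the lower-background lines. The part of background in it was not tested. Per kilobase, PSAP was the most abundant member in the cells of 9 lines, at 139 CPM per kb in SW480 to 433 CPM per kb in WiDr, and CTSB in COLO-201 (446 CPM per kb). The leading transcript of the vesicles was less uniform. It was PSAP in 5 lines, NPC2 in LS1034, LS513 and SW480, CTSB in COLO-201 and CTSA in SNU-C1. LoVo had the lowest share of lysosomal counts in cells (0.242%) and COLO-201 the highest (0.665%), whereas WiDr had the highest share in vesicles (0.276%).

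Differences between lines in cells were partly carried into the vesicles. Over 10 lines, the correlation of log2(CPM + 0.5) in vesicles with that in cells had a median of r = 0.479 over the 29 tested members, beside 0.443 over 10024 genes of at least 10 CPM in cells. It ran from -0.337 for GLB1 to 0.882 for LAMP1, and exceeded 0.5 for 14 members. LAMP1 (Spearman rho = 0.927), CTSB (r = 0.796), CTSD (r = 0.761) and GAA (r = 0.747) had the highest values. CTSL (r = 0.03) and MAN2B1 (r = 0.03) had values near 0. In the 5 lower-background lines the median was 0.676. These values are descriptions of 10 points of 1 library per compartment, and the median was 0.482 without WiDr and LS123.

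**Figure D4:**
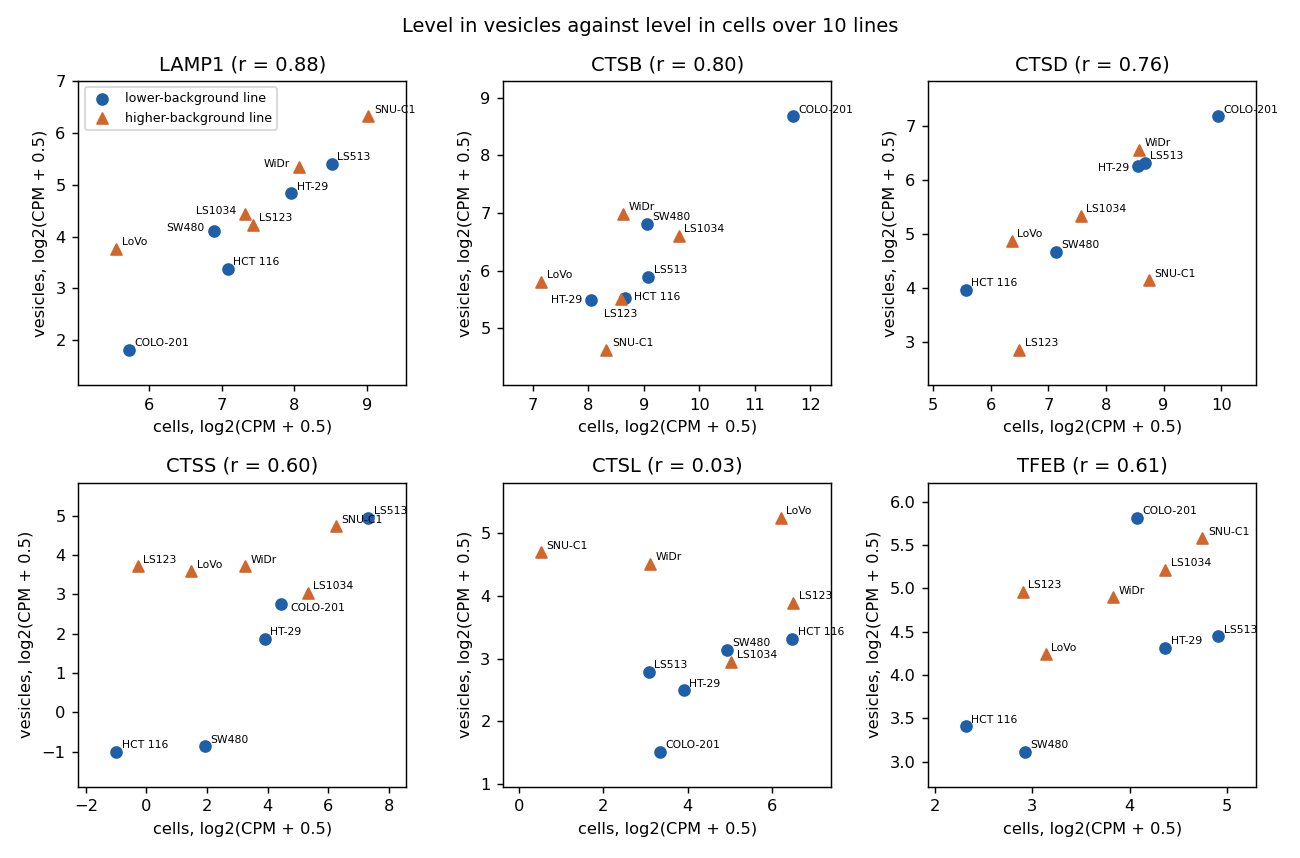
Level in vesicles against level in cells, both as log2(CPM + 0.5), for 6 genes in the 10 lines; circles are lower-background and triangles higher-background lines. LAMP1 follows the cells with r = 0.88 and COLO-201 is the highest line for CTSB and CTSD, whereas SNU-C1, lowest for CTSL in cells, is among the highest in vesicles.

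In cells, the level of TFEB across lines went with that of several members. The correlation with TFEB over 10 cell libraries had a median of r = 0.393 over 28 members, of which 21 were positive, beside a median of 0.0373 over 10023 other genes of at least 10 CPM, of which 52.8% were positive. CTSS was most like TFEB (r = 0.968, rho = 0.952), and r was 0.949 without the 2 lines farthest from the median of TFEB. CTSH (r = 0.868), CTSD (r = 0.810) and SCARB2 (r = 0.802) followed. CTSL went the other way (r = -0.798), as did GAA (r = -0.668) and, less so, MCOLN1 (r = -0.384). The 2 lines farthest from the median of TFEB were HCT 116 and LS123, which were alike in cells over all genes (r = 0.792). The median of 0.393 over the members is given with all 10 lines only. Without those 2 lines r was 0.830 for CTSH, 0.632 for CTSD, 0.789 for SCARB2, -0.678 for CTSL, -0.434 for GAA and -0.229 for MCOLN1. The same step took GUSB from 0.560 down to 0.0102 and SGSH from 0.205 up to 0.581. LS513 and SNU-C1 were at the high end of TFEB, CTSS and SCARB2 alike, and HCT 116, LS123 and SW480 at the low end of TFEB and CTSH. In vesicles the r with TFEB was 0.743 for CTSS and -0.05 for SCARB2.

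**Figure D5:**
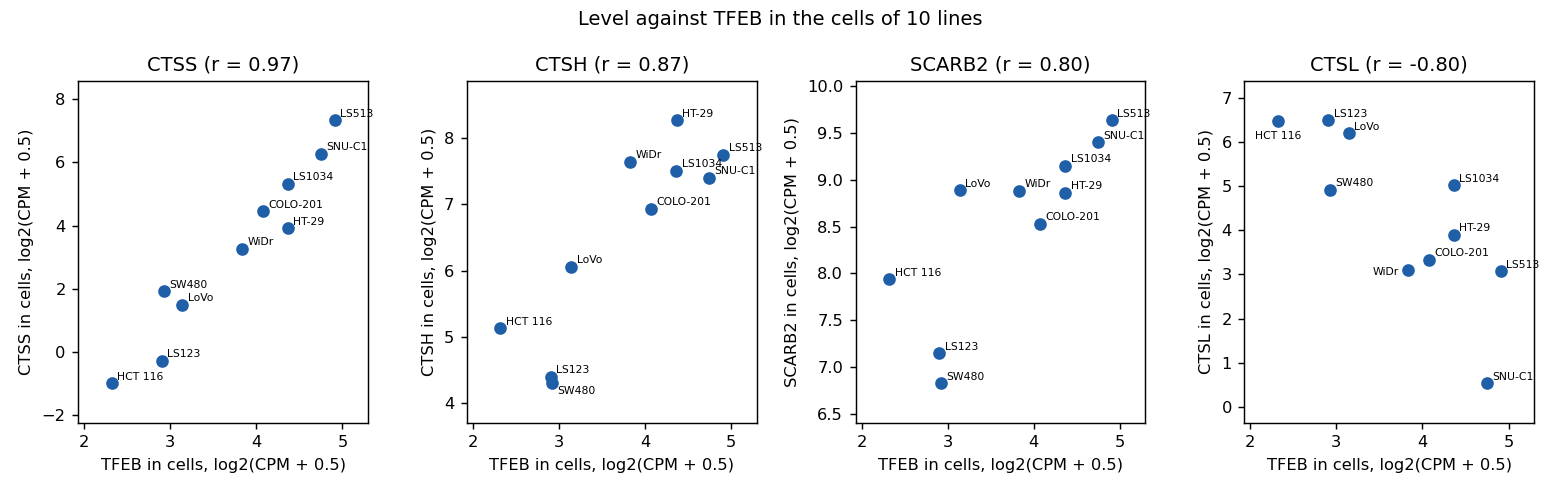
Level in cells of CTSS, CTSH, SCARB2 and CTSL against that of TFEB in the 10 lines, as log2(CPM + 0.5). CTSS follows TFEB along the whole range (r = 0.97), and CTSL is highest in the lines with least TFEB (r = -0.80).

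The E-box that TFEB binds could be read in the promoters of 23 members for which RefSeq windows of 300 bases (250 before to 50 after the transcription start, GRCh38.p14) were at hand. The letters CACGTG, which read the same on both strands, occurred in 6 of the 23 (26.1%: CLN3, CTSA, CTSD, GAA, LAMP1 and MCOLN1), against 7.26% of 35114 promoters of that length. Counted per gene, as for the members, the letters occurred in 11.97% of 12042 tested genes, in 28.3% of 60 other ER-made lysosomal genes and in 34.4% of 32 cytosol-made lysosomal genes. The longer palindrome in which CACGTG is preceded by GT and followed by AC occurred in GAA and MCOLN1 (8.70%), against 0.353% of the promoters. Per gene it occurred in 0.814% of tested genes, 6.67% of other ER-made and 9.38% of cytosol-made lysosomal genes. The stretch from 10 bases before the first CACGTG to 10 bases after the start is given for GAA and MCOLN1 and for LAMP1, the member with the most copies, with CACGTG in capitals.
LAMP1 (chr13:113297037-113297248, plus strand): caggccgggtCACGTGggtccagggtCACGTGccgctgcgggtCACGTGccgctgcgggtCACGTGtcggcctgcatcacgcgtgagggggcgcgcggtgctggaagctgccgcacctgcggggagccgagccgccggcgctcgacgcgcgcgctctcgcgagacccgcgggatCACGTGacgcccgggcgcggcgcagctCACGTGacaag
GAA (chr17:80101495-80101590, plus strand): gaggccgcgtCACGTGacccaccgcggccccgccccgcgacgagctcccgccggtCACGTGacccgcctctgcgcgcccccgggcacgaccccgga
MCOLN1 (chr19:7522573-7522633, plus strand): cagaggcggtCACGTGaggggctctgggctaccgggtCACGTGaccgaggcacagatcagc
LAMP1 holds 6 copies in this stretch, and GAA and MCOLN1 hold 2 each. The 6 members with CACGTG did not all go with TFEB in the same direction. Across cells r with TFEB was 0.810 for CTSD, 0.723 for CLN3, 0.537 for CTSA and 0.529 for LAMP1. It was -0.384 for MCOLN1 and -0.668 for GAA, beside a median of 0.393 over 28 members. CTSS, the member most like TFEB, was not among the 23 with a window. Of the 6 members with CACGTG, CTSA, CTSD and LAMP1 were lower in vesicles and CLN3, GAA and MCOLN1 were not called.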

How the data were processed

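Total RNA of 10 cell lines and RNA of their extracellular vesicles were sequenced. The authors deposited raw counts of reads per protein-coding gene. STAR, featureCounts and hg19 are named per the submitters' processing notes; versions, annotation and strand setting are not given in the sources used here. The labels' protocols name no molecular identifiers, and reads of overlapping genes cannot be told apart. All 20 columns matched a library title.

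Counts were fitted over the whole table with edgeR 4.0.16 in R 4.3.3 (glmQLFit robust, glmQLFTest, TMM, filterByExpr, cell line as a block), with Benjamini-Hochberg adjustment over 15130 genes and a threshold of 0.05. Each SE was obtained as the size of the log2 fold change over the root of its F statistic. CPM are TMM-scaled, with a pseudocount of 0.5 on the log2 scale. Correlations and lists are described without tests. The fit was tested on simulated data. Exonic length, GC and overlaps came from GENCODE 29, matched by symbol for 16827 of 17113 genes. Exonic length counts every base in any annotated exon of the gene, whether or not the lines use that exon. Expected background is the trimmed mean count of the 2081 genes silent in cells (10 counts or fewer in each cell library), in 5 length by 3 GC classes.

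The line block pairs libraries of the same line per the labels; each vesicle library correlated best with its own line's cells (r = 0.106 to 0.574, deviations from compartment means). Alternatives were other scalings, DESeq2 1.42.0, other filters, no block, background subtraction, fewer lines and each line left out in turn.

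Members and lists were chosen with earlier results of these data known. All members are named; single values are given as lowest, median and highest, and by line for TFEB, CTSS and CTSL. Of the other lists, the rule named the 2 members with the smallest adjusted p and any called higher with at least 10 CPM in cells. Beside the 118 other pathway genes, 7 listed symbols (6 markers and PQLC2) were not used here.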

Additional observations from a re-analysis of the deposited data

Results flagged for a closer look

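Each of the 29 tested members was checked in cells and in vesicles for a library far from the other 9, which makes 58 groups. Chance alone flags about 1 in 20 such groups, and 1 was found. CTSH was 2.20 CPM in HCT 116 vesicles (10 counts), far below the next library, SW480 at 16.2 CPM, and the median of 70.7 CPM. On the log2 scale the gap took up 0.490 of the range of the group, above Dixon's critical value for 10 samples. In cells CTSH was 34.5 CPM in HCT 116, while LS123 (20.6 CPM) and SW480 (19.1 CPM) were lower. Without HCT 116, CTSH remained lower in vesicles in edgeR.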

How the results depend on the processing

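Of the 19 members lower in vesicles, 16 were called lower under every alternative run, and the exceptions were CTSH, IDS and NPC2. The count was 16 to 21 over the alternatives and 16 to 20 with 1 line left out. Without the replicate block of the lines 17 members were lower and 0 higher. The number of members called higher (1 with all lines, range 0 to 1 with 1 line left out) was 2 with DESeq2 size factors or no filter, 3 with upper-quartile scaling, in DESeq2 and with the filter met in every cell library, and 0 with background subtracted, in the 5 lower-background lines and without WiDr and LS123. Beside TFEB, CLN3 was called higher with DESeq2 size factors. Both CLN3 and SGSH were called higher with upper-quartile scaling, in DESeq2 and with the cell-library filter. Of other ER-made genes 43 were lower, 28 with library size alone and 24 with upper-quartile scaling (39 to 45 with 1 line left out). Of cytosol-made genes 14 were lower, 7 with DESeq2 size factors, library size alone or DESeq2, 4 with upper-quartile scaling or background subtracted, 5 with the cell-library filter and 6 in the 5 lower-background lines (6 without LoVo, at most 13 with another line left out). Over all genes, the scaling moved the median log2 difference from 0.01 (TMM) to 0.38 (DESeq2 size factors), 0.48 (library size) and 0.76 (upper quartile), and leaving out LoVo to 0.35. Genes called lower and higher were 28.1% and 28.6% with TMM, 18.5% and 35.2% with DESeq2 size factors, 16.3% and 36.6% with library size, 11.6% and 46.0% with upper-quartile scaling, 20.8% and 41.4% in DESeq2 and 15.8% and 31.5% without LoVo. The members' median stayed below these, at -1.90 (TMM) to -1.16 (upper quartile). Log2 fold changes that changed sign were those of CTSZ (0.18 upper quartile, 0.026 cell-library filter), GAA (0.032 library size, 0.29 upper quartile, 0.14 cell-library filter), MAN2B1 (0.23 with DESeq2 size factors and in DESeq2, 0.34 library size, 0.61 upper quartile, 0.45 cell-library filter, -0.26 to 0.10 with 1 line left out, 0.10 without LoVo and 0.046 without COLO-201), MCOLN1 (-0.38 with background subtracted and in the 5 lower-background lines, -0.0062 to 0.38 with 1 line left out, lowest without LS1034) and CLN3 (-5.74 with background subtracted); the cause was not tested. The cell to vesicle correlation over lines kept a median of 0.435 to 0.536 with library size, without WiDr and LS123 or with background subtracted. Vesicle depth limits the least abundant members: SNU-C1 vesicles, with 1.75 M counts, allow 1.72 CPM by library total, before TMM scaling, at a count of 0.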
